A study of Homo sapiens with 14 samples.

Results

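R3 is 1 of 5 sublines of the human ovarian carcinoma cell line OVCAR-3 that were derived independently for resistance to PHA-533533, an inhibitor of the cell cycle kinase CDK2. Its array at passage 5, with 4 µM PHA-533533 in the medium, is called selected here, and its array at passage 10 or later, without the inhibitor, stable. The 2 R3 arrays were set against 4 arrays of parental OVCAR-3 cells grown without inhibitor (n = 4 replicates), and the 8 arrays of R1, R5, R6 and R7, sampled in the same pair of conditions, served as a further comparison, 14 arrays in all. All cells were kept in RPMI medium with fetal calf serum and were harvested before confluence. Genes were chosen by a rule on range: both R3 arrays had to lie above, or both below, all 4 parental arrays. Of 18398 measured genes 3097 met it, and 817 of those were outside the range on that side in R3 and in no other subline.

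CDK2 with its cyclin partners drives entry into and progress through DNA synthesis, and OVCAR-3 is known for extra copies of CCNE1, the gene of cyclin E1. Oncostatin M, leukemia inhibitory factor and interleukin 6 signal through receptors that share the chain gp130, the product of IL6ST. OSMR and LIFR each pair with gp130, and JAK kinases on the receptor tails then activate STAT3 and related factors. Type I interferon signals through its own receptor to a complex of STAT factors with IRF9, which binds a short element in the promoters of antiviral genes.

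R3 was 1 subline with 1 array per condition, and its arrays differed in inhibitor and passage together, so inhibitor, passage and array cannot be told apart. Whether the parental replicates came from separate cultures is not stated, so p-values reflect how these arrays vary, and the parental variation may be technical. In the tests against parental cells and against the other sublines, the selected and stable array of each subline formed 1 group. The spread in those tests therefore also holds the differences between the conditions. Values are deposited log2 signal. The mean of 337 olfactory receptor genes, which tumour cells of this kind are not known to use and which here mark the background, was 6.26 on the selected and 6.39 on the stable R3 array and 6.42 ± 0.225 (SD, n = 4) in parental cells. Of 14 serous ovarian carcinoma markers 13 lay at least 2 log2 above that background in parental cells. So did 2 of 10 fibroblast and 2 of 6 mesothelial markers, but none of the 9 leukocyte or 8 endothelial markers. The serous and mesothelial lists share MSLN and WT1, so the mesothelial count is not separate from the serous one. The stable R3 array stood apart from the rest of the series. It was at least 1 log2 above all 13 other arrays for 23 genes and as far below them for 3, while no other array did so for more than 4 genes above or 1 below.

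More genes lay above the parental range in R3 than below it. Both R3 arrays were above all parental arrays for 1983 genes, 10.8% of those measured, and below them for 1114, 6.06%. After quantile normalization 1825 genes were above and 1742 below, so the excess above the range was much smaller under that scaling. Without parental replicate 2 the count outside the range was 5349. At the edge of the rule DNAJB1, a heat shock cochaperone, had its lower R3 value only 5.5e-05 above the highest parental array, and ARL2BP, with a gap of -2.5e-05, did not meet the rule. With a distance of at least 0.5 log2 from the nearest parental array 66 genes remained above and 25 below.

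A test of R3 against parental cells that shared its estimate of the spread among all 14 arrays called 36 genes at an adjusted p under 0.05 (limma, Benjamini-Hochberg over all genes). Of these 22 were higher in R3, 0.12% of the genes tested, and 14 lower, 0.0761%. All 36 lay outside the parental range, 19 of the higher and 7 of the lower genes lay beyond all 12 other arrays, and 1712 genes had an unadjusted p under 0.05. With each array centred on its median 11 genes were called higher and 11 lower, with the olfactory receptor mean as a term 47 and 54, and with the growth condition as a term 161 and 76. The count rested on single arrays: the call was made for 228 genes without the selected R3 array, for 1 gene, CYP1A1, without the stable R3 array, and for 15, 14, 13 and 12 genes without parental replicates 1, 2, 3 and 4.

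OSMR, the receptor chain that binds oncostatin M, showed the largest rise among the called genes. Its signal was 7.66, 7.29, 7.41 and 6.96 on the parental arrays, 9.21 on the selected and 9.52 on the stable R3 array. Both R3 values were far above the parental values and above every array of the other sublines, which ran from 6.55 to 8.97. The difference from parental cells was 2.04 log2 (SE 0.20), 4.1-fold, with an adjusted p of 0.00423 by limma. OSMR was also above the parental range in R5 and R7, so a high OSMR signal was not found in R3 alone.

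IL6ST, the gene of gp130, rose as well. The parental arrays read 9.79, 9.88, 9.53 and 9.63, the selected R3 array 10.68 and the stable R3 array 11.24. The R3 arrays were the highest of the series, and the nearest other array, of R1, was at 10.42. The difference was 1.25 log2 (SE 0.20, limma adjusted p = 0.0364). The call was lost in 6 of 17 alternative settings: with median centring (0.0513), without the stable R3 array (0.208) and without any 1 parental array (0.0756 to 0.114). LIFR, the chain that pairs with gp130 for leukemia inhibitory factor and also takes oncostatin M, read 7.59, 7.61, 7.36 and 7.53 in parental cells and 8.37 and 8.18 in selected and stable R3. No other array of the series reached the R3 values for LIFR, but its difference of 0.75 log2 (SE 0.19) did not pass the test (limma adjusted p = 0.159). All 3 genes lie on chromosome 5.

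**Figure D1:**
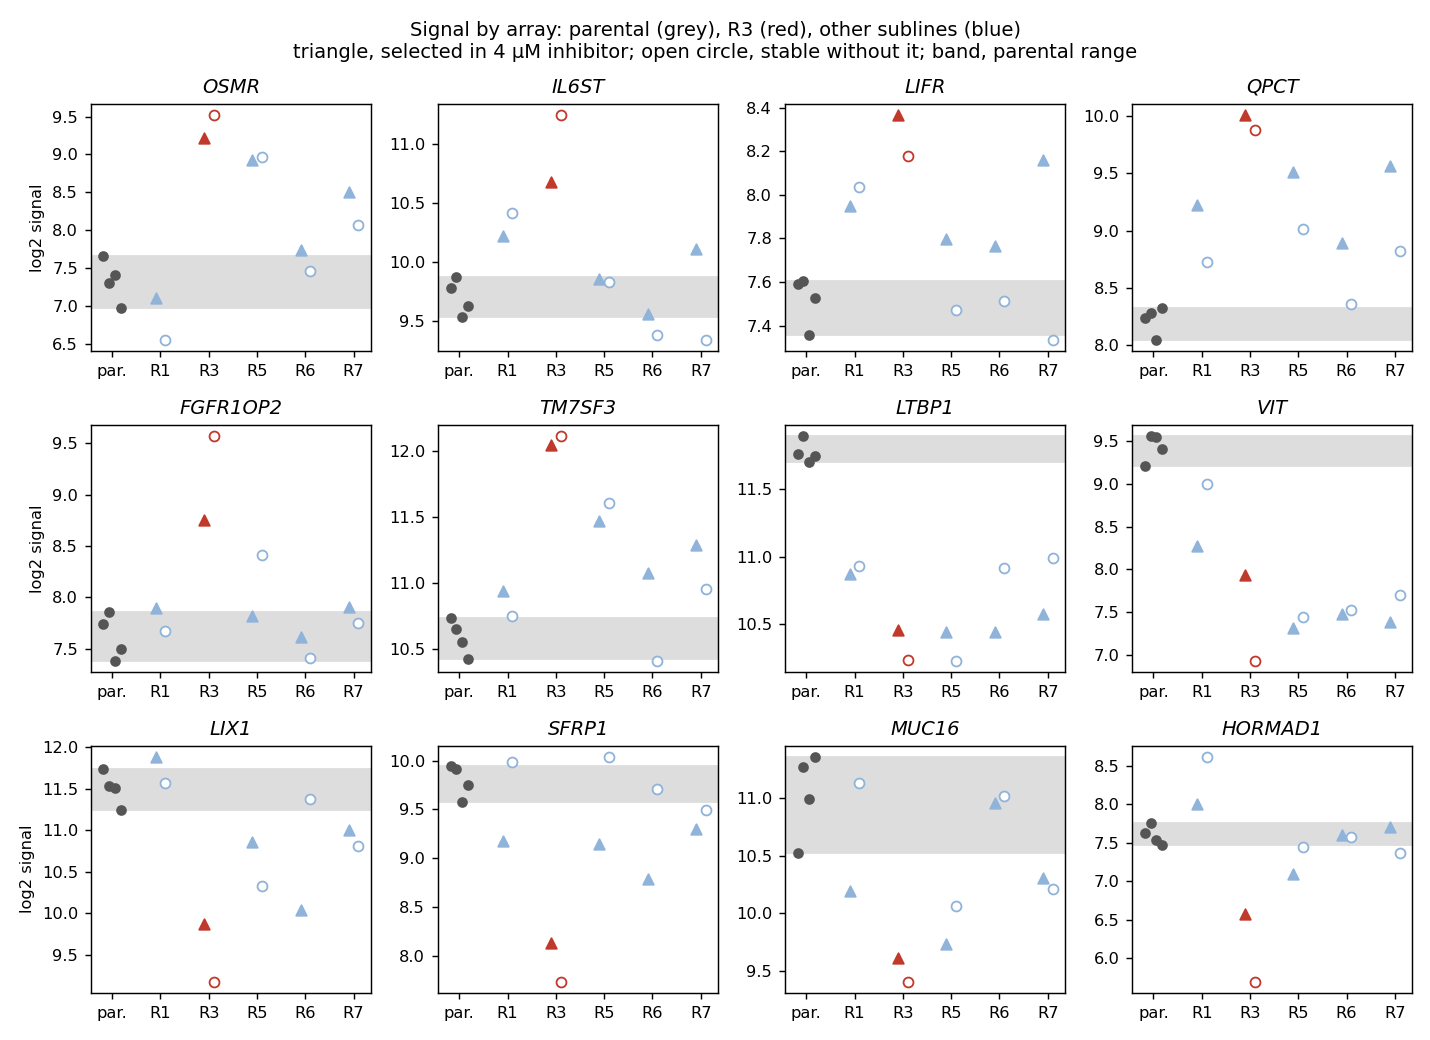
Log2 signal of 12 genes on each of the 14 arrays, with parental arrays in grey, R3 in red and the other sublines in blue; triangles are selected arrays, open circles stable arrays, and the grey band spans the 4 parental arrays. Both R3 arrays lie above the band for OSMR, IL6ST, LIFR, QPCT, FGFR1OP2 and TM7SF3 and below it for LTBP1, VIT, LIX1, SFRP1, MUC16 and HORMAD1.

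Of 32 measured genes of gp130 cytokine signalling 11 lay above the parental range in R3, 34.4% against 10.8% of all genes, and none below. Of the 11, OSMR and IL6ST passed the test, and 3 genes were above the range in R3 and in no other subline. The median difference of the list was 0.10 log2, against -0.01 over all genes, and it was 0.12 on the selected and 0.15 on the stable array. In the other sublines, which share the parental controls, the list's median was -0.06 in R1, 0.05 in R5, 0.03 in R6 and -0.03 in R7.

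By role the counts were small, and differences between roles were not tested. None of 7 measured ligands was outside the parental range. OSM read 7.25 and 7.24 in R3 against 7.14 to 7.47 in parental cells, and IL6 read 8.31 and 8.30 against 7.87 to 8.41. Their R3 values lay inside the parental spread. LIF differed between the R3 arrays, at 7.73 selected and 9.03 stable, on either side of the parental 7.97 to 8.62. Of 8 receptors 3 were above the range, and of 6 kinases and transcription factors 4 were: JAK2 and TYK2, kinases bound to the receptor tails, and STAT3 and STAT5B. STAT3 read 11.12 and 10.64 against 10.36 to 10.60 in parental cells, so the stable array cleared the range by little. Among 11 targets and feedback genes SOCS2, BCL3, CEBPD and TIMP1 were above the range. SOCS3, the feedback inhibitor of gp130, was above it on the selected array (8.98) but inside it on the stable array (8.69), with parental values of 8.67 to 8.80. No gene among these kinases, factors and targets passed the test. With each array centred on its median 10 members were above and 1 below.

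QPCT, the enzyme that closes N-terminal glutamine into pyroglutamate, rose most after OSMR among the called genes. The parental arrays read 8.24, 8.28, 8.05 and 8.33, and R3 read 10.01 selected and 9.88 stable. The difference was 1.72 log2 (SE 0.22, limma adjusted p = 0.00973). Every other array of the resistant sublines was above the parental range too, from 8.36 to 9.56, and all were below R3. QPCT was therefore high in all 5 sublines and highest in R3.

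Other called genes that were higher in R3 were spread over several chromosomes. CLIP4, a microtubule-binding protein, was 1.41 log2 higher (SE 0.22, limma adjusted p = 0.0327), at 9.01 and 9.34 in R3 against 7.53 to 7.87 in parental cells. SPOCK1, a matrix proteoglycan, was 1.27 log2 higher, at 9.73 and 9.76 against 8.22 to 8.66, and ACBD5, a peroxisome membrane protein, was also 1.27 log2 higher, at 9.19 and 9.45 against 7.76 to 8.39. Neither SPOCK1 (limma adjusted p = 0.0456) nor ACBD5 (0.0388) overlapped with any other array. Of 17 alternative settings SPOCK1 lost its call in 8, CLIP4 in 6 and ACBD5 in 5. DLX1, a homeobox factor, was 0.84 log2 higher, MAP3K7CL 0.83 log2 and SP8, a zinc finger factor, 0.59 log2. PLCB4, a phospholipase, FMN1, an actin nucleator, and LRRK1, a kinase, completed the genes called higher outside chromosome 12. FMN1 was under the background level in parental cells. For PLCB4 and FMN1 at least 1 array of another subline lay within the R3 values.

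Of the 22 genes called higher 10 lie on chromosome 12, and 9 of them fall into 1 stretch of 21 neighbouring measured genes from RASSF8 to CAPRIN2. In that stretch 18 of 21 genes were above the parental range, none was below it, and the median difference was 0.95 log2, the highest of all windows of 21 neighbouring genes. The median was 0.69 on the selected and 1.09 on the stable array. In the other sublines the same window had medians of 0.26 in R1, 0.34 in R5, 0.00 in R6 and 0.24 in R7, each against the same parental arrays. Of its 18 genes above the range 5 were so in R3 and in no other subline. This window was known from earlier results on these arrays, and its rank is a description.

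FGFR1OP2, known as a fusion partner of the receptor FGFR1 and as a member of a phosphatase complex, had the largest difference in the stretch. Its signal was 7.74, 7.86, 7.38 and 7.49 on the parental arrays, 8.75 on the selected and 9.57 on the stable R3 array. It was 1.54 log2 higher in R3 (SE 0.22, limma adjusted p = 0.0227). It was the only 1 of the 36 called genes that was outside the parental range in R3 and in no other subline. The nearest array of another subline read 8.41 and belonged to R5. Of FGFR1OP2 and its 20 nearest measured neighbours 16 were above the range, with a median difference of 0.90 log2.

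TM7SF3, a membrane protein, was nearly level between the R3 arrays, at 12.05 selected and 12.12 stable against 10.42 to 10.73 in parental cells, a difference of 1.49 log2 (SE 0.17, limma adjusted p = 0.00677). BMAL2, a partner of the circadian factor CLOCK, was at 9.84 selected and 11.03 stable against 8.58 to 9.15, and MRPS35, a protein of the mitochondrial ribosome, at 10.23 and 11.14 against 8.96 to 9.54. For both genes the stable array was about 1 log2 above the selected array. BMAL2 (limma adjusted p = 0.0483) lost its call in 11 of 17 alternative settings, and MRPS35 (0.0364) in 8. STK38L, a kinase of the NDR family, was 1.34 log2 higher (limma adjusted p = 0.00952), INTS13, a subunit of the Integrator complex, 1.26 log2 (0.00937) and MED21, a subunit of Mediator, 1.10 log2 (0.0433). KLHL42 and ERGIC2 were the remaining called genes of the stretch, at 0.85 and 0.67 log2. The members of the stretch thus differed from each other in size, while 18 of 21 lay above the range.

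The 3 genes of the window that were not above the range were REP15, OVCH1 and TMTC1. TMTC1 differed from the parental mean by 0.31 log2 on the selected array and by -1.50 log2 on the stable array. Over the wider run of 80 measured genes from MGST1 to ZCRB1, which holds this window, 31 were above the range and 1 below, with a median difference of 0.20 log2. The genes beside the other rising genes were not raised to the same degree. Of OSMR and its 20 nearest measured neighbours 6 were above the range, with a median of 0.19 log2, of QPCT and its neighbours 6, with a median of 0.21, and of IL6ST and its neighbours 6, with a median of 0.20. STX2, a membrane fusion protein outside the stretch, was the other called gene higher on chromosome 12.

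**Figure D2:**
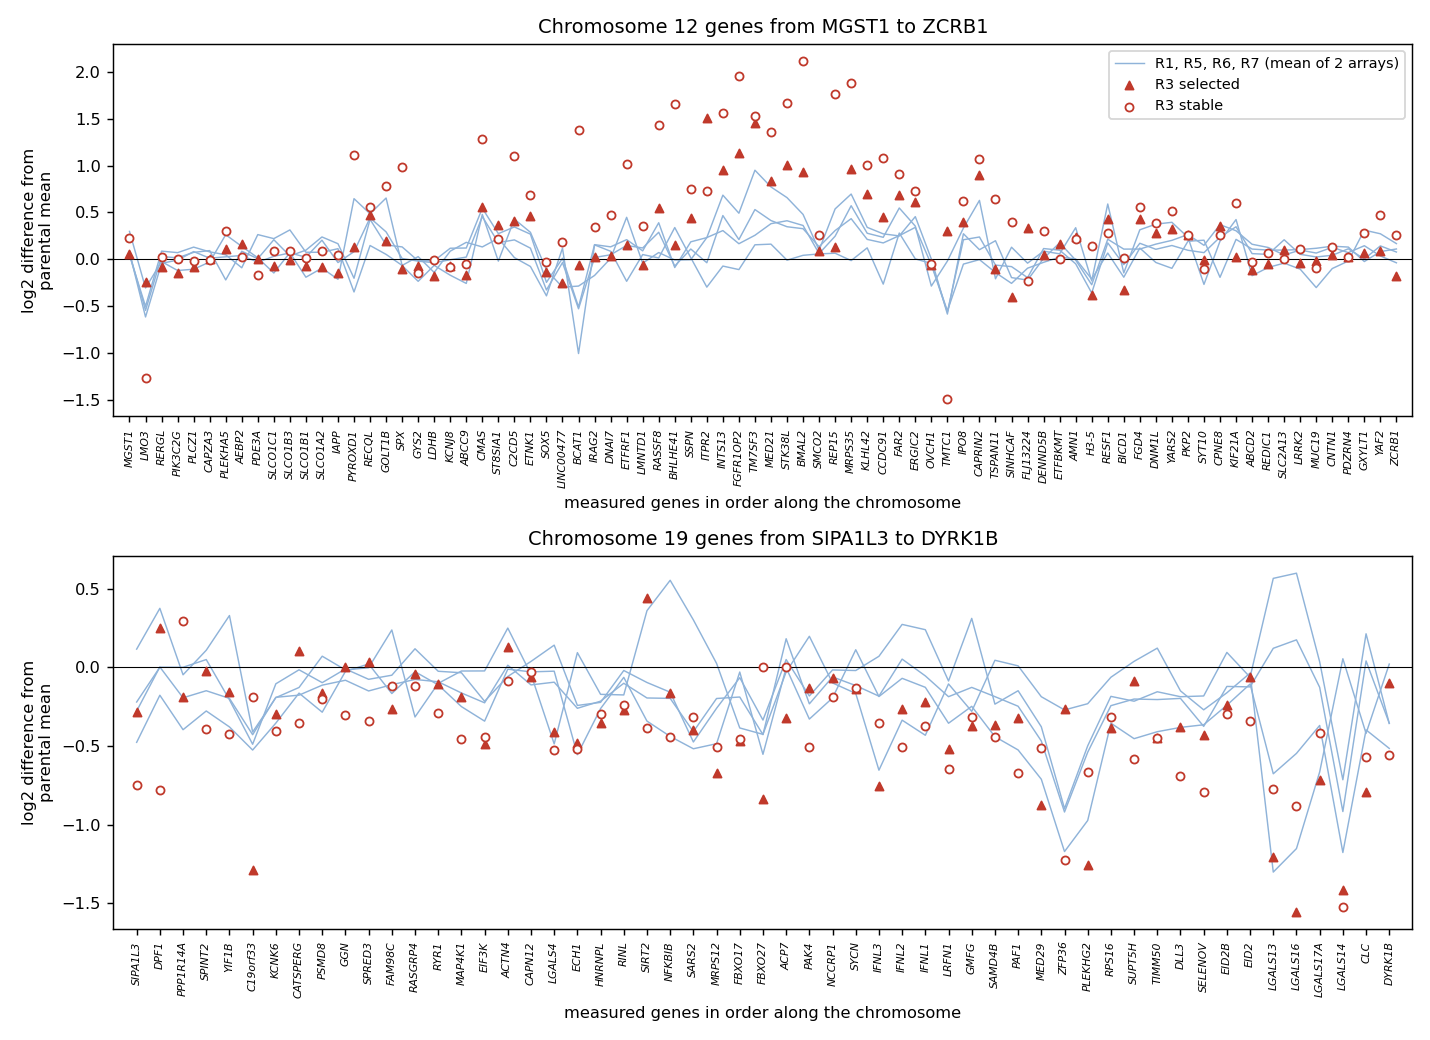
Log2 difference from the parental mean of measured genes in order along 2 chromosome stretches, with R3 selected as triangles, R3 stable as open circles and the means of the other sublines as blue lines. The R3 points rise together between RASSF8 and CAPRIN2 on chromosome 12, where the median is 0.95 log2. From SIPA1L3 to DYRK1B on chromosome 19 they lie mostly below 0, with a median of -0.34 log2 in R3 and the same in R5.

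VIT, the matrix protein vitrin, had the largest difference among the 14 genes called lower in R3. It was at 9.22, 9.57, 9.55 and 9.41 in parental cells, 7.93 in selected and 6.93 in stable R3, so it fell by 2.01 log2 (SE 0.25, limma adjusted p = 0.00937). All 5 sublines were below the parental range for VIT, and the arrays of the other 4 ran from 7.31 to 9.0. LTBP1, which holds latent TGF-beta in the matrix, fell by 1.42 log2 (SE 0.15, limma adjusted p = 0.00423), from 11.70 to 11.89 in parental cells to 10.46 and 10.24 in R3, and it too was below the range in all 5 sublines. VIT and LTBP1 were low in R3 and in the other sublines alike.

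SFRP1, a secreted inhibitor of WNT ligands, was lowest of the whole series in R3. It read 9.95, 9.91, 9.58 and 9.75 in parental cells, 8.13 in selected and 7.73 in stable R3, a difference of -1.86 log2 (SE 0.30, limma adjusted p = 0.0364). Among the other sublines it ran from 8.79 to 10.04, and only R7 was below the range with both arrays. LIX1 fell by 1.99 log2 (SE 0.31, limma adjusted p = 0.0357), from 11.25 to 11.74 in parental cells to 9.87 and 9.17, and was below the range in R5 and R7 as well. MUC16, the mucin whose shed form is measured in blood in ovarian cancer, was at 10.52, 11.27, 10.99 and 11.36 in parental cells and 9.61 and 9.41 in R3, a fall of 1.53 log2 (SE 0.25, limma adjusted p = 0.0414). Its R3 values were the lowest of the 14 arrays. Of 17 alternative settings SFRP1 and LIX1 each lost the call in 6 and MUC16 in 5.

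HORMAD1, a meiotic chromosome protein that tumours can switch on, stood out for its spread between sublines. Parental arrays read 7.63, 7.76, 7.54 and 7.47, R3 read 6.57 selected and 5.69 stable, with R5 below the parental range too and R1 above it. The fall in R3 was 1.47 log2 (SE 0.23, limma adjusted p = 0.0333), but the R3 values lay near or under the background level of 6.26 and 6.39 on those arrays, so its size is uncertain. ANKRD34B fell by 1.73 log2, TMEM178A by 1.46, SLC6A15, a transporter of neutral amino acids, by 1.17, NEDD9, a scaffold of focal adhesions, by 1.01 and SLFN13, a schlafen family ribonuclease, by 0.62. NEDD9 (limma adjusted p = 0.00952), SLFN13 and TMEM178A were below the range in all 5 sublines. Of 16 alternative settings HORMAD1 lost its call in 6, and SLC6A15 and SLFN13 in 7 each, counted by adjusted p. SLFN13 also fell short in the setting that asked for a difference of at least 1 log2. SLC6A15 was lower than in any other array of the series, at 6.47 and 6.35 against 7.51 to 7.67 in parental cells; the R3 values were at background, so neither the size nor the rank is firm.

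Of the 14 genes called lower 4 lie on chromosome 19: MUC16, LGALS14, RPS9 and ECH1. The lowest window of 21 neighbouring genes ran from IFNL3 to LGALS14 on that chromosome, with a median of -0.53 log2, -0.38 on the selected and -0.51 on the stable array, and 19 of its 21 genes below the parental range. R5 had a median of -0.38 there, R1 and R7 of -0.19 and R6 of -0.15. Over the 55 measured genes from SIPA1L3 to DYRK1B, a run chosen after its values were seen, 34 were below the range and none above. The run's median was -0.34 log2 in R3 and also in R5, -0.19 in R7, -0.08 in R6 and -0.06 in R1. LGALS14, a galectin best known from placenta, fell by 1.47 log2 (SE 0.18, limma adjusted p = 0.00937), to 9.46 and 9.35 from 10.68 to 11.04 in parental cells. LGALS14 also differed from parental cells by -1.18 log2 in R5, -0.92 in R7 and -0.71 in R6, and by 0.06 in R1. LGALS13, LGALS16 and LGALS17A beside it are close copies, and signal may be shared among them, so their separate values are uncertain. RPS9, of the small ribosomal subunit, fell by 0.52 log2, and ECH1, an enzyme of fatty acid breakdown, by 0.50. In the other sublines ECH1 differed by -0.56 log2 in R5, -0.26 in R7, -0.24 in R6 and 0.09 in R1.

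Interferon response genes had the highest median difference of the 25 gene lists in R3, and it was higher on the stable array. Of 44 measured genes 21 were above the parental range, 47.7% against 10.8% of all genes, and 2, MX2 and EPSTI1, were below. No member passed the test; by limma the smallest adjusted p was 0.0555, for RIGI, a sensor of viral RNA. The median difference was 0.38 log2, with 0.15 on the selected and 0.67 on the stable array. The other sublines had medians between 0.11 and 0.14. Of the 21 genes above the range 4 were so in R3 and in no other subline. With each array centred on its median 15 genes were above the range.

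IFI6, an interferon-induced mitochondrial protein, read 9.10, 9.09, 8.98 and 8.84 in parental cells, 9.76 in selected and 10.98 in stable R3. IFIT1, which binds viral RNA caps, read 5.93, 5.88, 5.97 and 5.85 in parental cells and then 6.39 and 7.32. PLSCR1, a phospholipid scramblase with antiviral action, read 9.22, 8.64, 8.98 and 8.51, then 9.49 and 10.61. All of these had the selected array above the parental range and the stable array about 1 log2 higher again. The differences were 1.37 log2 (SE 0.33, limma adjusted p = 0.143) for IFI6, 0.94 (SE 0.21, 0.114) for IFIT1 and 1.21 (SE 0.26, 0.0998) for PLSCR1. IFIT1 was under the background level in parental cells and near it in selected R3, so the size of its difference is uncertain, and CXCL10, IFIH1 and MX1 were dim there as well. IFI27 read 7.55 and 8.33 against 7.04 to 7.19, and HERC5, a ligase for the ubiquitin-like protein ISG15, 7.17 and 7.78 against 6.68 to 6.88.

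MX1 and CXCL10 were high on the stable R3 array and near parental values on the selected one. MX1, an antiviral GTPase, was at 6.59 selected and 7.86 stable against 6.67 to 6.80, and CXCL10, a chemokine, at 5.66 and 6.94 against 5.36 to 5.91. The stable values of both were more than 1 log2 above all other arrays of the series. Among factors and sensors, IRF1 (7.76 and 8.47 against 7.05 to 7.66), IRF9 (8.72 and 8.96 against 8.20 to 8.44) and IFIH1 (6.83 and 7.64 against 6.44 to 6.64) were above the range. Of 10 antigen presentation genes, which interferon also raises, B2M, TAPBP and PSMB8 were above the range and none was below, and the list's median was -0.06 on the selected and 0.21 on the stable array. Leukocyte markers did not move with these genes: the mean of the 9 was 6.53 and 6.42 in R3 and between 6.39 and 6.59 in parental cells, and none of them was outside the range.

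Many of the interferon genes above the range hold a promoter element that the rule on range did not use, and 5 of their promoters are shown because the element can be read in each of them. The letters GAAANNGAA, the core of the interferon-stimulated response element, were searched on both strands of RefSeq windows from 250 bases before to 50 after each gene's start (GRCh38.p14). They were found in 15 of 18 matched windows of interferon genes above the range in R3 (83.3%), in 9 of 17 windows of the list's other measured genes (52.9%), in 6.83% of 14225 windows of measured genes and in 8.29% of all 27305 windows. TTCNNNGAA, which STAT dimers bind, was in 7 of the 18 and in 7.07% of windows of measured genes, and the motifs overlapped in 2 of the 18. None of 9 matched windows of gp130 genes above the range held GAAANNGAA and 1, that of LIFR, held TTCNNNGAA. The list's other genes also exceeded the share of all windows, so the comparison with all windows describes the list and not R3. The difference within the list was not tested. A match is a description of letters, not of a bound site. The 250 bases before the start follow, with each GAAANNGAA match on either strand in capitals: IFI6 at chr1:27672193-27672442 on the minus strand, IFIT1 at chr10:89392373-89392622 and IFI27 at chr14:94110486-94110735 on the plus strand, HERC5 at chr4:88456869-88457118 on the plus strand and PLSCR1 at chr3:146544608-146544857 on the minus strand.
IFI6: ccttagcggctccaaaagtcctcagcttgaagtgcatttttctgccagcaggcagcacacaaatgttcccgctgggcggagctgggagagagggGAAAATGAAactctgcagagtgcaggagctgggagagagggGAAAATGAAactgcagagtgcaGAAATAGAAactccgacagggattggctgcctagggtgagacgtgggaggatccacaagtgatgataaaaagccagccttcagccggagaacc
IFIT1: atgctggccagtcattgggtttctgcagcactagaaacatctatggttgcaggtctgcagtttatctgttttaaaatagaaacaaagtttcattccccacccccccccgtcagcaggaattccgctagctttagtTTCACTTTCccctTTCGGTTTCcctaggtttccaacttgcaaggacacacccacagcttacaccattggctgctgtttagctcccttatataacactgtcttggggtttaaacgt
IFI27: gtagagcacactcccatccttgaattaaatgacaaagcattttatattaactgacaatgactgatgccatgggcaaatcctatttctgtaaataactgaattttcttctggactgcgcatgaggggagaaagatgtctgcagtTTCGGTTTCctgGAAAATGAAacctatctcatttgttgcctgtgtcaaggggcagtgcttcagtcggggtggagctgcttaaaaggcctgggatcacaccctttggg
HERC5: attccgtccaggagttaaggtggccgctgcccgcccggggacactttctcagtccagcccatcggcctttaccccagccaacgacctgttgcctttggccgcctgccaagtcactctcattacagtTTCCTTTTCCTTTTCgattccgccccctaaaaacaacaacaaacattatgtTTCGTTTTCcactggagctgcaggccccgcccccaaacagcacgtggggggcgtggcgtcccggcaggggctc
PLSCR1: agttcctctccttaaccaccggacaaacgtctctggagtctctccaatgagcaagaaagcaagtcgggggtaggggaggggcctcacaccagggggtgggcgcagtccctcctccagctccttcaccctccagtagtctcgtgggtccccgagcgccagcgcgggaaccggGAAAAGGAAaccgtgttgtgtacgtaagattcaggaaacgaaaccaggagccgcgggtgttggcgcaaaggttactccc
IFI6 and HERC5 each held 3 matches, with a pair in HERC5 that overlap, IFIT1 and IFI27 held 2 each, and PLSCR1 held 1. The windows of IRF1, IRF9 and RIGI held none.

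**Figure D3:**
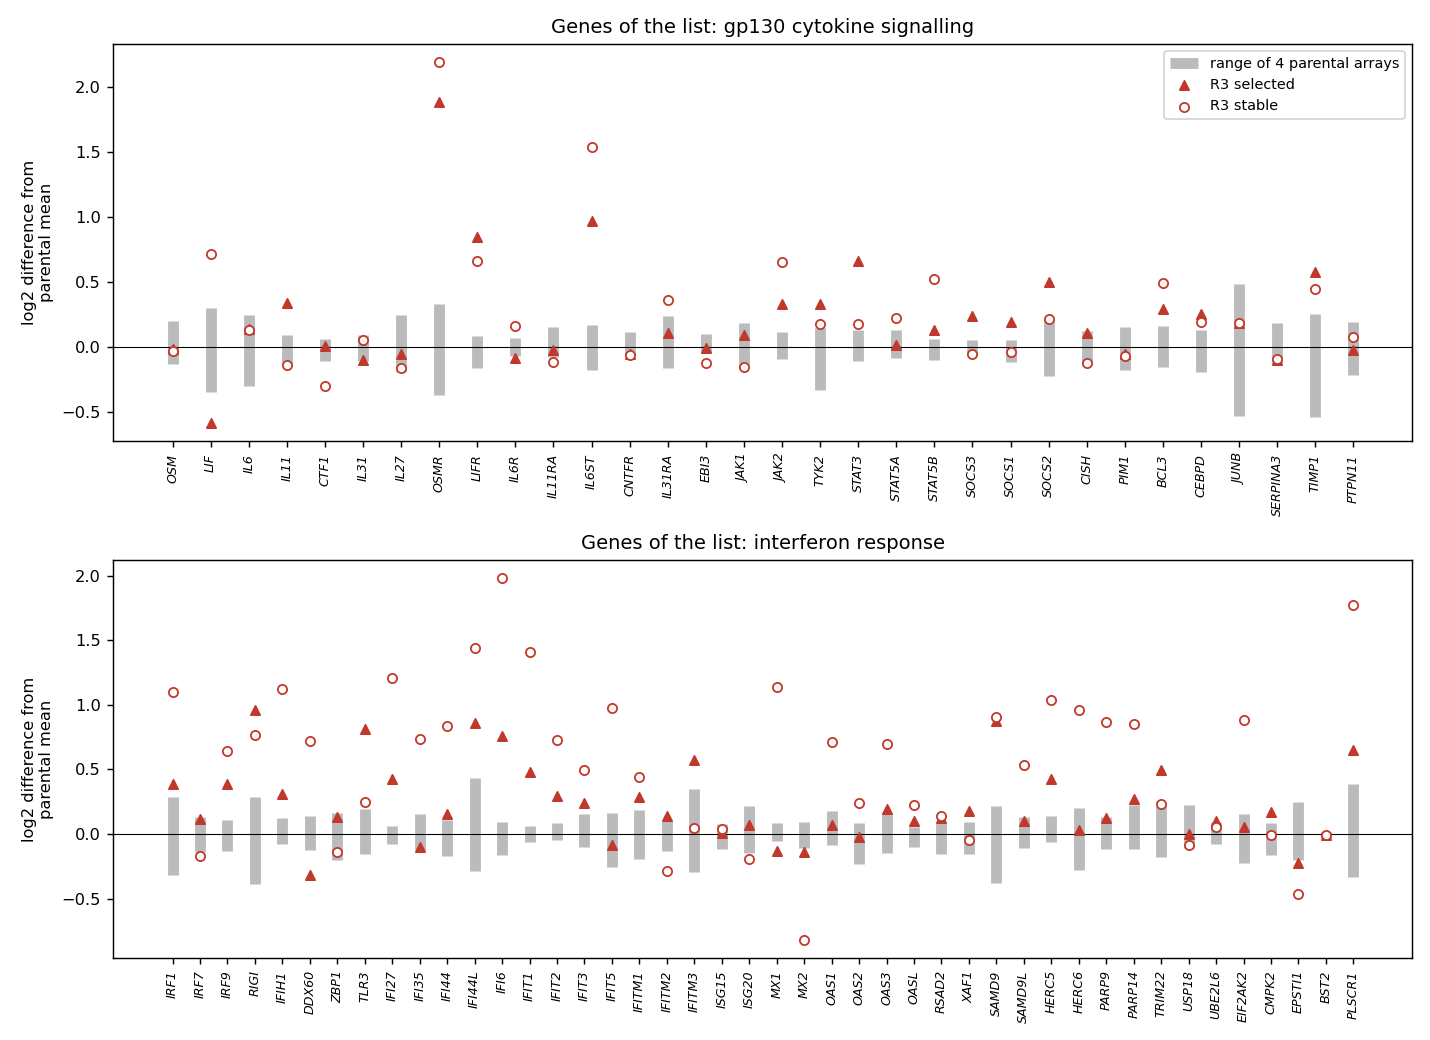
Log2 difference from the parental mean for each measured gene of the gp130 and interferon lists, with R3 selected as triangles, R3 stable as open circles and the range of the 4 parental arrays as grey bars. In the gp130 list OSMR, IL6ST and LIFR stand highest, and in the interferon list the stable array lies above the selected array for most genes, with medians of 0.67 and 0.15 log2.

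The 817 genes outside the range in R3 and in no other subline were mostly small differences. Above the range were 564, 3.07% of all genes, and below it 253, 1.38%; after quantile normalization the split was 504 and 437. Of the 817 only 3 lay at least 0.5 log2 beyond the nearest parental array, 2 above and 1 below. Another count, of genes for which both R3 arrays lay beyond all 12 other arrays, held 271 above and 103 below; it also takes in genes such as OSMR that were outside the range in other sublines. Being outside the range in R3 alone is a description, since a neighbouring subline may miss the range by little.

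Named by the smallest p against the other sublines, the genes above the range in R3 alone were FGFR1OP2, MGMT, NRXN3, SSPN, PACSIN3, IGF2BP1, CSNK1G2, TMEM54, ABHD14B, FBXO4, SH3GLB2 and EMP3. MGMT, which repairs alkylated guanine in DNA, read 9.08, 9.15, 9.0 and 9.11 in parental cells, 9.43 and 9.36 in R3 and 8.84 to 9.10 in the other sublines. The R3 values exceeded every other array, by a small amount. IGF2BP1, an mRNA-binding protein of fetal tissues and tumours, read 8.58, 7.97, 8.17 and 7.98 in parental cells, 8.76 in selected and 9.94 in stable R3. It was 1.18 log2 above parental cells (SE 0.35, limma adjusted p = 0.246) and 1.57 log2 above the mean of the other sublines (SE 0.32, limma adjusted p = 0.209). SSPN, a partner of the dystrophin complex that lies in the same chromosome 12 stretch as FGFR1OP2, read 8.09 and 8.40 against 7.56 to 7.75, and NRXN3, a synaptic adhesion protein, 8.62 and 9.02 against 8.20 to 8.33.

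The genes below the range in R3 alone were TMT1B, SH3RF1, OPRPN, POLB, NPY1R, LONRF3, TSPAN12, RLN2, GSTM4, GABBR1, SETDB1 and TFCP2L1 by the same rule. TSPAN12, a tetraspanin of norrin signalling, had the largest difference of these, at 9.25 and 9.14 in R3 against 10.19, 10.19, 10.33 and 10.09 in parental cells, -1.0 log2 (SE 0.33, limma adjusted p = 0.303). The other sublines ran from 9.58 to 11.08. POLB, the polymerase of base excision repair, read 10.28 and 10.03 against 10.37 to 10.65, SETDB1, a histone methyltransferase, 8.86 on both arrays against 9.07 to 9.42, and GSTM4, a glutathione transferase with close copies, 8.24 and 8.0 against 8.64 to 8.96. OPRPN, NPY1R and RLN2 lay under the background level of 6.42 in parental cells, so their differences rest on dim signal. No gene of this group passed the test against parental cells.

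The difference between R3 and the mean of the other 4 sublines was tested on its own. No gene was called, 0% in either direction, at an adjusted p under 0.05 by limma, and 1111 genes had an unadjusted p under 0.05. The smallest adjusted p was 0.0651, shared by OSMR, FGFR1OP2, TM7SF3, INTS13, MAP3K7CL and HORMAD1 among others. OSMR was 1.45 log2 above the other sublines (SE 0.19), FGFR1OP2 1.35 (SE 0.20) and TM7SF3 1.02 (SE 0.15), and HORMAD1 was -1.54 log2 from them (SE 0.21). When the growth condition was fitted as a term, 17 genes were called higher and 4 lower, with adjusted p of 0.00997 for OSMR and QPCT, 0.0224 for FGFR1OP2, 0.0413 for IL6ST, 0.0207 for SFRP1 and 0.00895 for CYP1B1 and IGF2BP1. Without the selected R3 array 190 genes were called. The test without that term called no gene as different between R3 and the other sublines.

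The selected and stable arrays of R3 differed from each other more than those of most sublines. At least 1 log2 separated them for 151 genes higher in selected and 164 genes higher in stable R3. The genes higher in the stable array numbered 32 in R1, 39 in R5, 15 in R6 and 22 in R7, and those higher in the selected array 49, 44, 48 and 241. A test of the selected minus stable difference of R3 against that of the other 4 sublines, in which the single R3 pair was assumed to vary like the others, called 8 genes as more negative in R3, 0.0435% of all genes, and 1 as more positive, 0.00544% (limma); 1982 genes had an unadjusted p under 0.05. Without R1 29 genes were called and without R5 20.

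GREM1, a secreted inhibitor of bone morphogenetic proteins, had the largest of these differences. It read 8.23, 7.81, 7.90 and 7.83 in parental cells, 7.67 in selected R3 and 11.57 in stable R3. On every other array of the series it lay between 7.19 and 8.38, so the stable R3 array stood alone by more than 3 log2. Selected minus stable was -3.91 log2 in R3 and between -0.68 and 0.05 in the other sublines, a difference of -3.57 (SE 0.27, limma adjusted p = 0.00748).

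The stable array was also high by itself for RASGEF1B, MT1M, APOBEC3B and ODAD2. RASGEF1B, an exchange factor for RAP GTPases, read 7.28 selected and 9.52 stable, and the arrays of the other sublines were between 7.47 and 7.83. MT1M, a metallothionein, read 6.36 and 8.46, and APOBEC3B, a DNA cytidine deaminase, 6.37 and 8.32. Both belong to families of close copies, so signal from a relative cannot be told apart. Their differences were -2.23 log2 for RASGEF1B, -2.18 for MT1M and -1.86 for APOBEC3B (each limma adjusted p = 0.0111). MT1M and APOBEC3B were near background on the selected array, so the sizes of their differences are uncertain. ODAD2, a protein of motile cilia, read 6.70, also near background, and 8.80 (limma adjusted p = 0.0482), and it lost its call in 5 of 8 alternative settings.

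PMAIP1, a pro-apoptotic BCL2 family protein, WEE1, the kinase that restrains CDK1, and TUFT1 went the other way in R3 than in the rest. PMAIP1 read 8.44 selected and 9.90 stable in R3, with parental values of 8.06 to 8.55. In each of the other 4 sublines the selected array was the higher for all 3 genes, by 0.21 to 0.62 log2 for PMAIP1, 0.25 to 0.75 for WEE1 and 0.18 to 0.46 for TUFT1. Limma's adjusted p was 0.0218 for PMAIP1 and TUFT1 and 0.043 for WEE1. TUFT1 and WEE1 each lost their call in 3 of 9 alternative settings, among them leaving out R6 (0.0533 for both) or R7 (0.0737 and 0.0835). WEE1 read 9.40 selected and 10.78 stable in R3 against 10.22 to 10.79 in parental cells, so it was the selected array that lay outside the range. The call that was more positive in R3 was RPPH1, the RNA of ribonuclease P, named after its value was seen, at 11.32 selected and 9.85 stable. Its parental arrays were split, at 9.91 and 9.61 in replicates 1 and 3 and 11.87 and 12.07 in replicates 2 and 4.

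**Figure D4:**
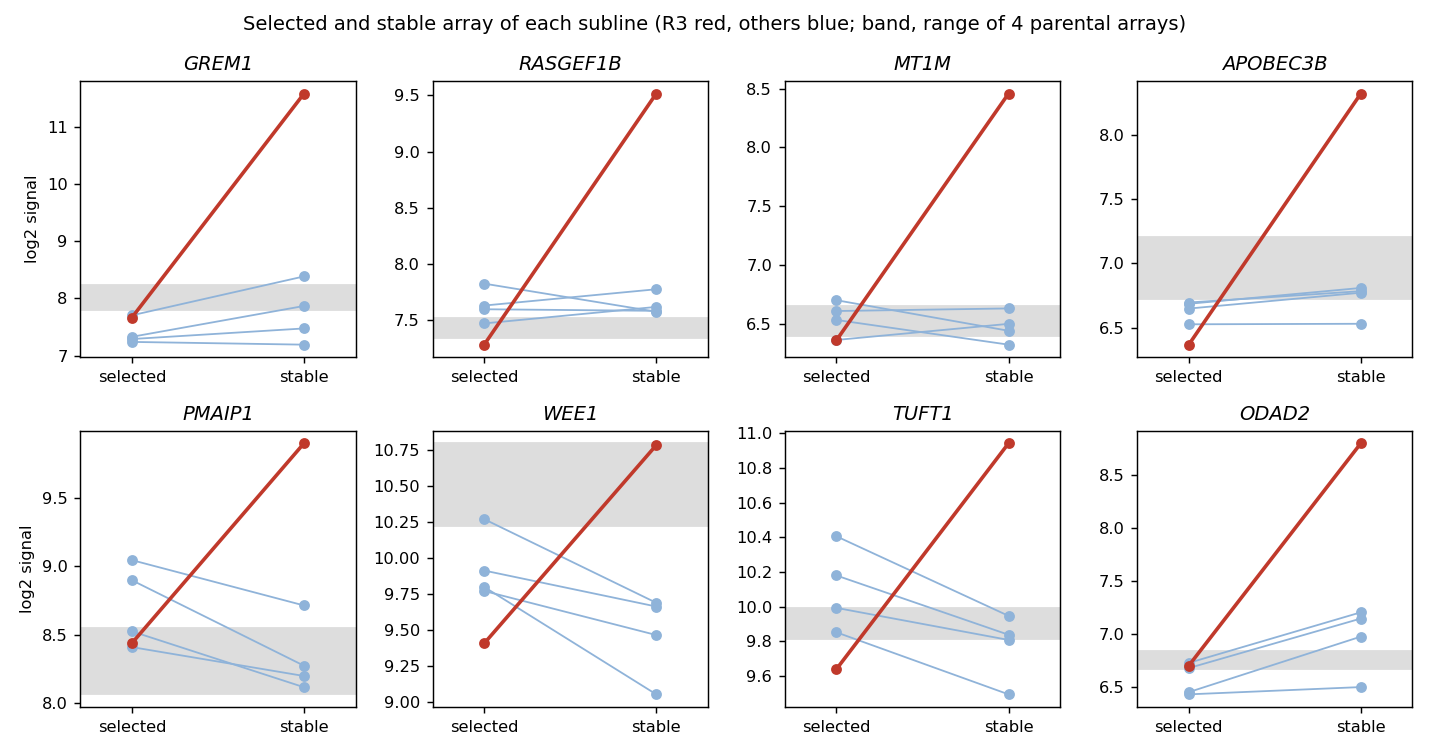
Log2 signal of 8 genes on the selected and stable array of each subline, with R3 in red, R1, R5, R6 and R7 in blue and the range of the 4 parental arrays as a grey band. In R3 every line rises to the stable array, for GREM1 from 7.67 to 11.57, while the lines of the other sublines stay within 0.75 log2 of level.

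The stable R3 array also held the highest values of the series, by at least 1 log2, for DPP4, a surface peptidase, for FN1, the gene of fibronectin, for IL18, a cytokine, and for TNFAIP3, a feedback inhibitor of NF-kB. DPP4 read 10.80 there and 7.17 in selected R3, against 6.68 to 7.29 in parental cells. FN1 read 10.14 and 8.47 against 8.05 to 8.54. PPARGC1A, a coactivator of mitochondrial genes, SULF2, an extracellular sulfatase, and LAMA1, a laminin chain, were the 3 genes lowest there, at 7.50, 7.77 and 7.63. The selected array alone exceeded all others by that distance only for CYP1A1, an enzyme of aryl hydrocarbon metabolism, at 8.97 against 6.87 to 7.09 in parental cells and 7.51 in stable R3. CYP1B1, a related enzyme, read 8.27 and 7.93 against 6.77 to 6.98, 1.19 log2 higher (SE 0.23, limma adjusted p = 0.0618).

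CDK2 and CCNE1, the kinase the inhibitor was made for and its cyclin, showed no call in R3. CDK2 read 9.82, 9.93, 9.71 and 9.73 in parental cells, 9.84 in selected and 10.17 in stable R3, a difference of 0.21 log2 (SE 0.12, limma adjusted p = 0.682). CCNE1 read 10.89, 11.13, 10.77 and 10.98 and then 11.07 and 11.15, a difference of 0.17 (SE 0.20, limma adjusted p = 0.897). For both genes at least 1 R3 array lay within the parental range. Of 22 genes around CDK2 and cyclin E, CCNE2, CCNA1, CDKN1B and NPAT were above the range, 18.2% against 10.8% of all genes, and CCNB1 was below, 4.55% against 6.06%. CDKN1B, the gene of the CDK2 inhibitor p27, was above the range in R3 alone, at 10.34 and 10.38 against 9.68 to 9.98, 0.50 log2 higher (SE 0.14, limma adjusted p = 0.21). CCNA1, a cyclin partner of CDK2 best known from testis, read 9.99 and 11.12 against 8.90 to 9.56.

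Of 11 genes of the CDK4, CDK6 and RB group CCND3, CDKN2A, CDKN2B and RBL1 were above the range and CDK6 and RB1 below, 36.4% and 18.2% against 10.8% and 6.06% of all genes. CDK6, a kinase of the G1 phase, read 10.04 and 10.37 against 10.53 to 11.10, and it was below the range in R5, R6 and R7 as well. RB1, the retinoblastoma protein gene, read 9.52 and 9.32 against 9.74 to 9.97. Of 36 DNA replication and E2F genes 2 were above (5.56%) and 1 below, and of 29 mitosis genes 1 was above (3.45%) and 1 below, under the shares of all genes, with list medians of -0.01 and 0.06 log2. No gene of these lists passed the test.

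Many ribosomal protein genes lay below the parental range in R3, by small differences. Of 30 measured 10 were below the range, 33.3% against 6.06% of all genes, none was above, and RPS9 passed the test. The median was -0.16 log2, -0.23 on the selected and -0.04 on the stable array, and the other sublines had medians from -0.20 to -0.09. After quantile normalization 16 were below. On the selected array taken alone 24 were below and none above, and on the stable array alone 11 were below and 6 above. Of the immediate early genes FOS read 10.14 and 8.02 against 10.45, 11.26, 10.44 and 11.31 in parental cells, and EGR1 11.75 and 10.30 against 12.28, 12.82, 12.14 and 12.81. In the MAPK and immediate early list of 23 genes 5 were below the range (21.7%), with FOSB, DUSP1 and SPRY2 beside these, DUSP4 and PHLDA1 were above it, and none passed the test. The list's median was 0.03 in R3 (-0.09 selected, 0.21 stable), against -0.08 in R1, -0.32 in R5, -0.47 in R6 and -0.26 in R7.

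Lists on stress and degradation are read against the shares of all genes, 10.8% above the range and 6.06% below. Of 20 genes of the integrated stress response 7 (35%) were above and 1, ATF4 itself, was below, with a median of 0.23 log2. SLC7A11, the cystine transporter, read 10.20 and 10.62 against 9.30 to 9.70, and ATF4, the list's transcription factor, 10.64 and 10.16 against 10.87 to 11.41. Of 21 p53 target genes 8 (38.1%) were above and 1 below, with a median of 0.21 log2, and GDF15, a stress cytokine, read 9.44 and 10.53 against 8.48 to 8.97. Of 28 lysosome genes 6 (21.4%) were above and none below, with medians of 0.39 log2 on the selected and 0.08 on the stable array, with 19 above and none below on the selected array alone and 11 above and 5 below on the stable array alone. Of 25 NRF2 and xenobiotic genes 6 (24%) were above and 1 below, among them NFE2L2, the gene of NRF2 itself, at 11.77 and 11.74 against 10.70 to 11.07 (0.84 log2, SE 0.15, limma adjusted p = 0.0526). No member of these 4 lists passed the test. In R1 the list medians were 0.30 log2 for the stress response, 0.33 for p53 targets, 0.25 for lysosome and 0.06 for NRF2 genes. Over both R3 arrays they were 0.23, 0.21, 0.21 and 0.15. In R5, R6 and R7 they ran from -0.27 to -0.12, -0.04 to 0.05, 0.10 to 0.17 and 0.03 to 0.18. Of the genes above the range 2, 1, 0 and 1 were so in R3 and in no other subline.

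None of 12 ABC drug efflux genes was outside the parental range, and of 15 BCL2 family genes only BIK, on the low side. Over all genes 10.8% were above it and 6.06% below, and differences of these lists from those shares were not tested. Of 23 NF-kB targets and chemokines 2 were above (8.70%) and 3 below (13.0%). Of 30 epithelial and mesenchymal genes 5 were above (16.7%) and 3 below (10%), and of 23 matrix and protease genes 3 above (13.0%). Of 18 cholesterol synthesis genes 3 were above (16.7%) and 2 below (11.1%), and of 18 Hippo targets 3 above (16.7%) and 3 below (16.7%). NID2, the matrix protein nidogen, had the largest difference in these lists, at 11.25 and 12.32 against 9.55 to 10.26 (1.93 log2, SE 0.36, limma adjusted p = 0.0555), with all other sublines above the range too. VIM, the gene of the mesenchymal filament vimentin, was below the range in R3 alone, at 7.80 and 7.92 against a lowest parental value of 7.92, from which the stable array is hardly apart. Of 14 serous ovarian carcinoma markers EPCAM, SOX17 and CLDN4 were above the range and MUC16 was below and passed the test. Of 10 fibroblast, 8 endothelial and 6 mesothelial markers 1 each was below and none above.

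**Figure D5:**
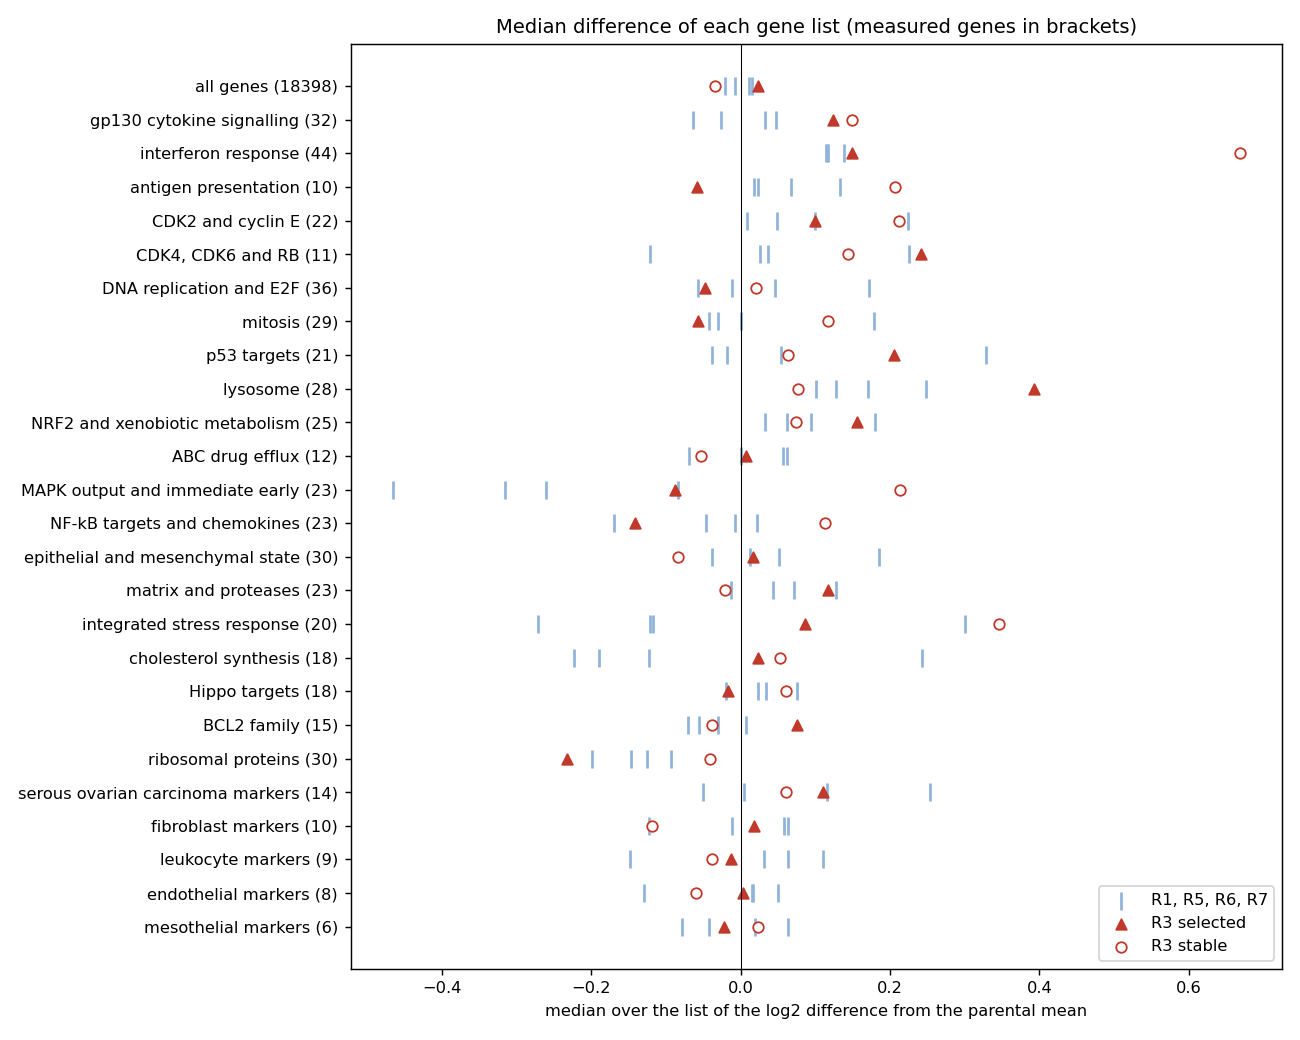
Median over each gene list of the log2 difference from the parental mean, with R3 selected as triangles, R3 stable as open circles and the means of R1, R5, R6 and R7 as blue bars. The interferon list of the stable R3 array, at 0.67 log2, lies farthest from 0 of all points, and among the R3 points the lysosome list of the selected array follows at 0.39.

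Genes outside the range were unevenly spread over the chromosomes. Above the range were 16.2% of the 982 measured genes of chromosome 12, against 10.8% over all. Chromosomes 18, 3 and 20 came near it, with 15.5%, 15.1% and 14.4%. The genes above the range in R3 alone made up 7.81% of the 679 genes of chromosome 10 and 7.34% of the 1008 genes of chromosome 3, against 3.07% over all. On chromosomes 13, 21 and 22 more genes lay below the range than above, 16.1%, 14.4% and 13.9% against 3.48%, 2.12% and 3.78%. The same held on chromosome 5, with 11.7% below and 6.91% above, and by little on chromosome 19, with 10.9% and 9.94%. Over all genes 6.06% were below. After the stretch on chromosome 12 the next highest windows of 21 genes had medians of 0.33 log2 on chromosome 2, from SP5 to SCRN3, and 0.32 on chromosome 5, from ANXA2R-AS1 to ARL15. Neighbouring genes are not independent of each other, and these shares carry no test.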

How the data were processed

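RNA of the 14 samples was hybridised to Affymetrix whole-transcript gene arrays, per the labels' protocols. The authors deposited 1 table of log2 signal; no source used here gives its background correction or normalization, and the log base was read from the range of values, 4.34 to 14.92. Of 32295 table entries 19148 name 1 gene, and the entry with the highest mean over the arrays stood for each of 18398 genes. The number of arrays limits the precision. R3 against parental, R3 against the mean of the other 4 sublines, and selected minus stable were contrasts of limma 3.58.1 (R 4.3.3) fits with Benjamini-Hochberg adjustment at 0.05, tested on simulated data. The genes named were OSMR, QPCT and FGFR1OP2, CCNE1 and CDK2, the 12 largest differences each way among the called genes, 12 each way outside the range in R3 alone by smallest p where fewer were called, up to 8 each way of the pair test, up to 4 members of each list and genes of the neighbour windows outside the range. Other members of lists and genes standing apart on 1 array were named after their values were seen. The members and the 25 gene lists were chosen with earlier results of these data known. The neighbours of IL6ST, the SIPA1L3 to DYRK1B run and the list counts under other scalings or with an array left out were chosen after seeing the data. Figures used matplotlib 3.10.9 and Python 3.11.15.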

Additional observations from a re-analysis of the deposited data

Results flagged for a closer look

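Some parental groups of 4 had 1 array apart from the other three by Dixon's test, which flags about 1 in 20 groups by chance. The lowest parental array stood apart for CLIP4 at 7.529, RLN2 at 5.906, GABBR1 at 8.325, CDKN2B at 9.039, DUSP1 at 10.045, KLHL42 at 7.971, SOX17 at 9.338 and TYK2 at 8.637. The highest stood apart for BIK at 6.782, FN1 at 8.543, HERC5 at 6.881, LGALS17A at 7.312 and LRRK1 at 7.595.

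For other genes both R3 arrays lay on one side of the parental range and both arrays of another subline on the opposite side, a difference that was not tested. R3 was above and another subline below for MGMT (R3 minus parental 0.304; R5, R6 and R7), NRXN3 (0.569; R6), PACSIN3 (0.329; R6), IGF2BP1 (1.175; R1 and R6), CSNK1G2 (0.483; R6), ABHD14B (0.309; R6), CDKN2B (0.445; R6) and PLCB4 (1.038; R1). R3 was below and another subline above for HORMAD1 (-1.465; R1), TMT1B (-0.393; R1 and R7), OPRPN (-0.404; R5 and R7), POLB (-0.386; R1), NPY1R (-0.188; R6), LONRF3 (-0.209; R6), RLN2 (-0.173; all 4), GABBR1 (-0.612; R6), LGALS13 (-0.991; R6), RB1 (-0.42; R1) and VIM (-0.316; R7).

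The selected minus stable difference of R3 less that of the other sublines, tested with limma, was -3.569 for GREM1, -2.227 for RASGEF1B, -2.175 for MT1M, -1.862 for APOBEC3B, -1.853 for PMAIP1, -1.847 for WEE1, -1.72 for ODAD2, -1.639 for TUFT1 and 2.685 for RPPH1. Among table entries that name no gene or several, which no comparison used, 678 of 13147 (5.16%) were above the parental range on both R3 arrays and 871 (6.63%) below.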

How the results depend on the processing

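R3 against parental called 36 genes; the count was 22 with arrays centred on the median, 72 after quantile normalization, 60 with trended and robust variance, 9 with array weights, 237 with a growth condition term, 101 with the olfactory receptor mean as a term, and 1 to 228 with 1 array left out. R3 against the other sublines called 0 genes by limma, with 1111 at an unadjusted p under 0.05; it called 1 with dim genes left out, 5 with trended variance, 21 with the growth term and 0 to 190 with 1 R3 array or 1 subline left out, of which 1 without R1 and 1 without R5. The pair test called 9 genes, 4 after quantile normalization, 46 with trended variance, 29 without R1 and 20 without R5. The 3097 genes outside the range became 91 at a distance of 0.5 log2 and 3466 to 5349 with 1 parental array left out; the 817 in R3 alone became 3 at that distance, and 374 genes, not all of them among the 817, lay beyond all 12 other arrays. The highest window median of 0.95 was 1.26 over 11 and 0.60 over 41 genes, and the lowest, -0.53, was -0.42 over 41. The cause was not tested. Of the 24 named called genes each lost its call in 1 to 11 of 17 settings, median 4.5, and none changed direction in them. These counts go by adjusted p. The setting that asked for a difference of at least 1 log2 kept the main fit, so it could cost no gene its call in them. SLFN13, at -0.62 log2, did not reach that difference. For HORMAD1, SLC6A15 and SLFN13 there were 16 settings, since they were absent where dim genes were left out. Of the pair calls GREM1 and PMAIP1 kept theirs in 9 of 9 settings and MT1M and APOBEC3B in 8 of 8. R3 and parental arrays were not compared as pairs, because the labels link no R3 array to a parental array.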
